A study of Mus musculus with 9 samples.

Results

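CTCF occupancy was examined at the genes that encode CTCF itself and the machinery that extrudes, holds and releases chromatin loops. The 8 genes were Ctcf, the cohesin subunits Smc3, Rad21 and Stag1, the loader Nipbl, and the release and pausing factors Wapl, Pds5a and Pds5b, all on autosomes. A merged CTCF peak was assigned to a gene when it overlapped the annotated gene body (GENCODE M21, GRCm38) or the 10 kb on either side, so that position alone chose the peaks. This gave 80 of the 225769 merged peaks. The ChIP-seq libraries were made from primary female neural stem cells (NSCs), which grow from cortices of E14.5 C57Bl/6 embryos as an adherent monolayer. Control NSCs were Smchd1 GFP/GFP, in which both alleles of the silencing protein SMCHD1 carry a GFP tag, with 3 lines. MommeD43-GFP NSCs (Smchd1 MommeD43-GFP/MommeD43-GFP) carry the same tag on an allele with the MommeD43 point mutation, also with 3 lines. Smchd1 del/del NSCs, with 2 lines, were obtained from floxed cells in culture by a Cre retrovirus carrying puromycin resistance and 1 week of drug selection. The labels give the control no floxed allele, virus or drug and give the deleted lines no tag, so the parts of deletion, virus, drug and tag cannot be told apart. The 1 input library came from a Smchd1 GFP/GFP line and has no value in the peak table.

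CTCF is a zinc finger protein that binds an asymmetric DNA motif and, at many sites, stops cohesin as it extrudes a loop. Cohesin is a ring built from the ATPase subunits SMC1A and SMC3, closed by the kleisin RAD21 and carrying a STAG subunit that contacts CTCF. NIPBL loads cohesin and drives its ATPase, WAPL opens the ring and releases it, and PDS5A and PDS5B bind the ring and take part in both release and pausing. All of these genes are expressed in dividing cells, NSCs among them. SMCHD1 is a non-canonical relative of the SMC proteins, and the study asked how a point mutation in it and its loss affect CTCF on chromatin.

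Each peak has 1 value per genotype, the authors' mean over lines of log2 RPM (reads per M mapped), here called the level. A level was read over the whole peak, so a longer peak has a higher level at the same occupancy. Whole-peak levels serve for the genotypes at 1 peak, for read depth and for the median and the classes of level, and how tall different peaks were is given per kb (log2 RPM per kb). No value per line was available, so no replicate SD, n or p-value stands behind any difference, and no sentence below compares a difference with the spread between lines. The steps between the lowest values corresponded to geometric mean library sizes of 41.7 M reads (control), 49.2 M (MommeD43-GFP) and 49.98 M (Smchd1 del/del). Member peaks held between 6.07 and 359 reads per control library, 12.1 and 431 per MommeD43-GFP library and 9.17 and 531 per Smchd1 del/del library. Errors given with ± are counting standard errors from these reads and cover counting only. Where the level reached the median of all peaks, differences between MommeD43-GFP and control had an SD of 0.308 and a median counting error of 0.155, so differences vary more than counting alone gives. In the top 10% of all peaks by level per kb, 51.4% held the CTCF motif defined next, against 6.93% in the bottom 10%. The table holds no expression values, so neither NSC markers nor loss of Smchd1 RNA could be checked in it.

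The motif search used the conserved core of the CTCF site, written on its own strand as CCA, any pair of bases, AG, any pair of bases and GGC, on both strands. This strict form lay in 14 of the 80 member peaks (17.5%), against 16.4% of all merged peaks and 13.7% of all peaks of the same lengths as the members. A relaxed form that leaves the base after CC free, and so holds each strict match too, lay in 18 (22.5%), against 24.5% of all merged peaks and 21.1% at the same lengths. The 14 peaks held 16 strict sites. Windows of 30 bases from the RefSeq copy of GRCm38 are shown 5′ to 3′ on the motif strand, with the 12 bases of the core in capitals. The first set comes from peaks at gene starts and from the tallest peak of Stag1, since these carried the highest CTCF levels per kb of their genes or marked their promoters.
Ctcf start, strict (chr8:105637035-105637064, minus strand): tcagccgggCCAAAAGCCGGCctcgagggt
Smc3 start, strict (chr19:53599900-53599929, plus strand): ggctcggaaCCAGCAGGAGGCgctctgagc
Stag1 internal start, strict, first (chr9:100643564-100643593, plus strand): gcagcgcggCCAGCAGAGGGCggtcgggac
Stag1 internal start, strict, second (chr9:100643622-100643651, plus strand): tggaaaatgCCACCAGATGGCgggttagga
Nipbl start, relaxed, nearer (chr15:8445071-8445100, plus strand): accctcaatCCCGGAGAAGGCggccagccg
Nipbl start, relaxed, farther (chr15:8446582-8446611, plus strand): gtggccttgCCCCTAGTGGGCtaattcata
Pds5b start, relaxed (chr5:150673684-150673713, plus strand): gccgtgcggCCGGTAGGGGGCgctgagaac

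The second set is shown because a single core, CCAGAAGAGGGC, recurred in different genes. It was the most frequent of all strict cores, in 16713 merged peaks, and was noticed after the sites were read. It made up 6 of the 16 strict sites of the members, in 5 peaks of Smc3, Stag1, Wapl, Pds5a and Pds5b. These are 6.25% of the members, against 7.40% of all merged peaks. Among peaks with a strict site the core lay in 35.7% of members, against 45.1% of all, so it was no more common here. All 6 lay in sequence that the genome file soft-masks as repeat, against 4 of the other 10 strict sites. Between 21 and 28 of the 30 bases of each window matched the base most common at that position among the 6. A CTCF core inside B2 short interspersed elements is known from rodent genomes, but the file names no repeat family, and these sites were not assigned to one.
Smc3 body, first (chr19:53636743-53636772, minus strand): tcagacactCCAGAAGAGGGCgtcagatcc
Smc3 body, second (chr19:53638243-53638272, minus strand): acctgtgtgCCAGAAGAGGGCatcatatcc
Stag1 intron (chr9:100898224-100898253, minus strand): tcagtcacaCCAGAAGAGGGCgttattgat
Wapl intron (chr14:34680387-34680416, plus strand): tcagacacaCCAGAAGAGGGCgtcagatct
Pds5a intron (chr5:65667870-65667899, minus strand): tcagacatgCCAGAAGAGGGCatcagatct
Pds5b intron (chr5:150684862-150684891, minus strand): ttatgaacaCCAGAAGAGGGCatcagatcc

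CTCF was found near each of the 8 genes, at 4 to 17 peaks a gene, as at 93.4% of all protein-coding genes on autosomes. The member windows, of 49.5 to 382 kb, were longer than the median of 37.6 kb over those genes. Of the 80 peaks, 42 lay in introns, 15 overlapped coding exons, 4 overlapped untranslated exons, 2 overlapped other exons, and 6 and 11 lay in the upstream and downstream flanks. The windows, 1100 kb in all, held 7.27 peaks per 100 kb, against 8.28 per 100 kb over the genome. Across 20807 protein-coding genes on autosomes the median was 10.4 per 100 kb, with quartiles of 6.44 and 15.0. Rad21 was the densest member at 14.1 per 100 kb, and Stag1 and Wapl, at 4.46 and 4.25, lay below the lower quartile. A CTCF peak within 1 kb of the gene's outermost start was present at 5 of the 8 genes, Ctcf, Smc3, Nipbl, Pds5a and Pds5b, against 43.5% of the protein-coding genes. Counting every annotated transcript start, 7 of the 8 had one, against 59.2%, and Rad21 was the exception. By level per kb, 9 member peaks (11.2%) stood in the top 10% of all peaks. By level over the whole peak, 38 of the 80 (47.5%) were at or above the median of all peaks. The median length was 675 bp against 750 bp, the median GC content 45.8% against 47.8%, and the median soft-masked share 26.2% against 16.2%.

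**Figure D1:**
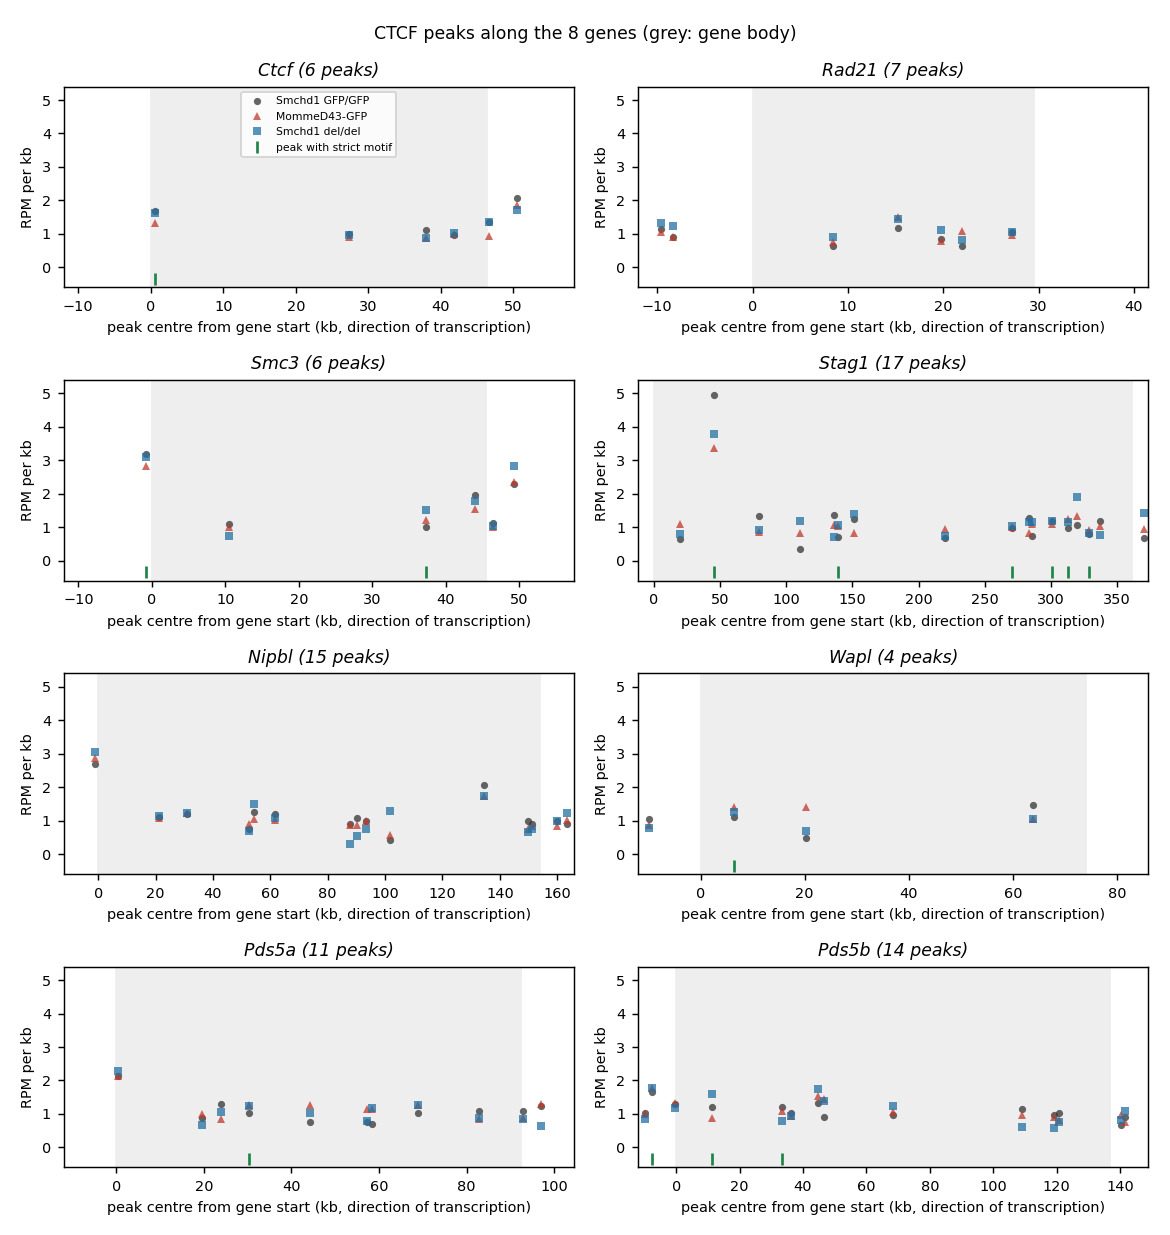
Each panel is 1 gene and each point a CTCF peak in 1 genotype, at its distance from the gene start in kb (x axis) and its level on a linear scale, in RPM per kb of peak (y axis). Grey marks the gene body and green ticks mark peaks with a strict motif. Tall peaks stand at the starts of Smc3, Nipbl and Pds5a and about 45.4 kb into Stag1, while no peak of Rad21 or Wapl reaches the top 10% of all peaks.

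Ctcf (ENSMUSG00000005698.15, chromosome 8: 105636568-105682922, plus strand) had 6 peaks in its window. The peak at its own start, peak 1 when the peaks of a gene are numbered by chromosome position (105636301-105637950), had levels of 1.46 in control and 1.13 in MommeD43-GFP, with 1.42 in Smchd1 del/del NSCs. The MommeD43-GFP value was lower than both others, by -0.34 ± 0.11 against control and -0.30 ± 0.12 against Smchd1 del/del. Its sequence is 67.8% GC, and with differences centred within 20 bins of peaks of like GC content, an alternative used again below, the difference from control was -0.21. This peak also lies within 1 kb of starts of Agrp and Gm5914, so it cannot be assigned to Ctcf alone. It held 1 strict and 1 relaxed-only site, with cores centred 481.5 and 192.5 bp downstream of the gene start. The tallest peak of the window per kb was peak 6 in the downstream flank (105685051-105688950), at the start of the neighbouring gene Carmil2, with levels of 3.01, 2.86 and 2.73 in the order control, MommeD43-GFP and Smchd1 del/del, the order used from here on. Summed over the 6 peaks of the window, CTCF came to 13.9, 12.1 and 12.2 RPM. Most of this lay in peak 6 at the Carmil2 start, with 8.07, 7.26 and 6.65 RPM. The sums of both mutants were lower than control, by -0.20 ± 0.05 for MommeD43-GFP and -0.19 ± 0.05 for Smchd1 del/del on the log2 scale. In Smchd1 del/del the start peak itself differed from control by -0.04 ± 0.12, so the lower sum is not a statement about the Ctcf promoter. Both differences share the control column. Among 12326 protein-coding genes with at least 4 peaks, the first stood at percentile 3.83 and the second at percentile 10.0, and 5 and 4 of the 6 peaks were lower than control. Centred by GC content, the summed differences shrank to -0.11 and -0.07, and those of peak 6 went from -0.15 to -0.02 for MommeD43-GFP and from -0.28 to -0.12 for Smchd1 del/del.

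Smc3 (ENSMUSG00000024974.10, chromosome 19: 53600398-53645833, plus strand), the cohesin ATPase subunit, had 6 peaks, and all of them were at or above the median level of all peaks. The start peak (peak 1, 53598901-53600400) was at 2.26, 2.08 and 2.22. Its mean level per kb, 1.60, stood at percentile 99.1 of all peaks and was the second highest among the members. A start of AC137853.1 lies within 1 kb of it. Differences from control were -0.18 ± 0.08 in MommeD43-GFP and -0.04 ± 0.09 for Smchd1 del/del. Centred by GC content they were -0.12 and 0.08, so the second turned its sign. Inside the gene, peak 3 (53636251-53639250) lies at internal transcript starts and holds both Smc3 copies of the recurrent core. Its level was 1.61, 1.86 and 2.20, lowest in control and highest in Smchd1 del/del, with differences from control of 0.26 ± 0.10 and 0.59 ± 0.10. The second was above the 95th percentile, 0.56, of all peaks in the same level class, the highest of 10 classes of equal size. Centred by GC content (40.8% in this peak) the differences were 0.02 and 0.33, and the second was then inside the range of its class, whose 95th percentile became 0.53. Peak 4 (53643901-53644800), also at an internal start, was at 0.83, 0.48 and 0.68. Its differences from control, -0.35 ± 0.14 and -0.15 ± 0.15, were -0.58 and -0.41 once centred by GC content. Peak 6 in the downstream flank, chosen here after its values were seen, was at 3.11, 3.13 and 3.41 and stood at percentile 97.8 of all peaks per kb. The summed level was 21.4, 20.9 and 24.1 RPM, with Smchd1 del/del above control by 0.17 ± 0.04 (percentile 82.1 of the genes) and MommeD43-GFP below Smchd1 del/del by -0.21 ± 0.04 (percentile 7.37).

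Rad21 (ENSMUSG00000022314.10, chromosome 15: 51962240-51991747, minus strand), the kleisin that closes the ring, had 7 peaks and none within 1 kb of any of its annotated starts. Levels lay between -1.78 and -0.33 over the 3 genotypes, and 1 of the 7 was at or above the median level of all peaks. The peaks were 300 to 750 bp long, and per kb 4 of the 7 stood above the median of all peaks, the tallest of them at percentile 84.9. No strict or relaxed motif was found in them. The peak with the highest level per kb, peak 4 in an intron (51976351-51976650), was at -1.51, -1.15 and -1.22 and held between 14.6 and 22.2 reads per library. Each of the 7 peaks was higher in Smchd1 del/del than in control, by 0.01 to 0.45. The counting errors of these differences were 0.22 to 0.34, and all 7 share the control column. Among 1089 protein-coding genes with 7 peaks, all peaks were higher in this comparison at 0.826%. Rad21 was singled out for this after its values were seen, so the share is a description and not a test. In MommeD43-GFP, 3 were higher and 4 lower than control. Summed levels were 3.47, 3.74 and 4.26 RPM, and Smchd1 del/del stood above control by 0.29 ± 0.10, at percentile 93.0 of the genes, inside the range from -0.25 to 0.34 that holds the middle of the genes between percentiles 5 and 95. Centred by GC content, the summed difference was 0.22 for Smchd1 del/del and went from 0.11 to 0.01 for MommeD43-GFP. Peak 4 in Smchd1 del/del less control went from 0.30 to 0.04. The count of higher peaks was not repeated with this centring.

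Stag1 (ENSMUSG00000037286.15, chromosome 9: 100597798-100959375, plus strand) encodes a STAG subunit of cohesin and is the longest of the 8 genes at 362 kb. It had 17 peaks, 16 of them in the gene body, and none at its outermost start. Its tallest peak, peak 2 (100642351-100644000), lies at starts of protein-coding transcripts whose first exons begin inside the gene. With a mean level per kb of 1.99 (percentile 99.8 of all peaks) it was the tallest per kb of all 80. The level was highest in control, at 3.03, against 2.47 with the MommeD43 mutation and 2.64 without SMCHD1. The differences from the shared control were -0.56 ± 0.07 and -0.39 ± 0.07, and between the mutants -0.17 ± 0.08. Both differences from control were below the 5th percentile of peaks in the same, highest level class, which was -0.26 for MommeD43-GFP and -0.34 for Smchd1 del/del. On a linear scale these are 1.47-fold and 1.31-fold, short of the 1.5-fold and 2-fold thresholds. The peak holds a pair of strict sites on the strand of the gene, with starts 58 bp apart. Both windows overlap annotated exon sequence. The peak is 63.5% GC, and centred by GC content the differences from control were -0.42 and -0.23. The first was still below the 5th percentile of its class, then -0.23, while the second was inside the range, whose 5th percentile was -0.24.

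Of the other 16 Stag1 peaks, 5 held a strict site, all in introns. Peak 12, with the recurrent core, was at 0.10, -0.01 and 0.08, and peak 9 at -0.76, -0.72 and -0.68, with differences from control within their counting errors at both. Centred by GC content, peak 12 (35.9% GC) was lower than control by -0.34 and -0.28. Peak 6 was at -0.91, -0.38 and -0.32, peak 13 at 0.54, 0.90 and 0.79 and peak 15 at 0.62, 0.86 and 0.71, each lowest in control. At peak 6 the differences from control were 0.53 ± 0.22 and 0.59 ± 0.24, and 0.48 and 0.57 centred by GC content. Those of peak 13, 0.36 ± 0.14 and 0.25 ± 0.15, became 0.19 and 0.08. Those of peak 15, 0.24 ± 0.14 and 0.09 ± 0.15, became 0.15 and 0.05. In contrast to the tallest peak, 10 of the 17 were above control in MommeD43-GFP, and 11 were in the Smchd1 del/del cells. The lowest difference of all 80 members in MommeD43-GFP against control was at Stag1 peak 3, an intronic peak (-0.74 in control, -1.40 in MommeD43-GFP, -0.66 ± 0.26). Summed levels of 19.2, 18.4 and 19.2 RPM differed by -0.06 ± 0.04 and 0.00 ± 0.04 from control.

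Nipbl (ENSMUSG00000022141.7, chromosome 15: 8290617-8444463, minus strand), the loader, had 15 peaks and no strict motif. Its start peak, peak 15 (8444551-8446650), was the tallest of the gene per kb, at percentile 98.8 of all peaks. The level was 2.50, 2.60 and 2.67, with differences from control of 0.09 ± 0.07 and 0.17 ± 0.08. It held both relaxed-only sites shown above, at -622.5 and -2133.5 bp from the gene start. Centred by GC content, the differences of this peak from control rose to 0.23 and 0.33. Per kb, 1 of the other 14 peaks, peak 5, also stood in the top 10% of all peaks, at percentile 94.0. Summed over the gene, the differences from control of -0.02 ± 0.05 and 0.00 ± 0.05 were within counting error.

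Wapl (ENSMUSG00000041408.18, chromosome 14: 34673928-34747983, plus strand), which encodes the release factor, had 4 peaks and the lowest peak density of the 8. No peak lay within 1 kb of its outermost start. The tallest per kb, peak 2 in an intron (34680001-34680750), holds a strict site with the recurrent core and was at -0.29, 0.09 and -0.09. Its differences from control, 0.38 ± 0.18 and 0.19 ± 0.21, were 0.15 and -0.07 when centred by GC content (36.7% in this peak), so the second turned its sign. Peaks 3 and 4 lie at internal transcript starts and stood at percentiles 9.72 and 74.1 per kb, with levels of -2.78, -1.26 and -2.27 and at -1.18, -1.69 and -1.65. Summed levels were 3.11, 3.22 and 2.72 RPM, the smallest of the 8 genes in MommeD43-GFP, control and Smchd1 del/del alike. MommeD43-GFP was above Smchd1 del/del by 0.24 ± 0.11, at percentile 96.8 of the genes and just above their 95th percentile of 0.20.

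Pds5a and Pds5b encode paralogous ring-binding proteins, and both genes lie on chromosome 5 and had a start peak. At Pds5a (ENSMUSG00000029202.12, 65605721-65698273, minus strand) the start peak, peak 11 (65696401-65699550), was at 2.74, 2.75 and 2.85 and was the tallest of its 11 peaks per kb. At Pds5b (ENSMUSG00000034021.15, 150673739-150810690, plus strand) the start peak, peak 3 (150672001-150674850), was at 1.87, 1.93 and 1.74. The differences from control were 0.00 ± 0.07 and 0.11 ± 0.07 at Pds5a and 0.06 ± 0.09 and -0.13 ± 0.10 at Pds5b. Centred by GC content they were 0.14 and 0.27 at Pds5a and 0.19 and 0.03 at Pds5b. Per kb the Pds5a start peak was the higher, at 1.13 against 0.33. Only the Pds5b start peak held motifs, both relaxed-only, at -40.5 and 558.5 bp from the gene start. The tallest of the 14 Pds5b peaks was not at its start but upstream, at the start of N4bp2l2 (peak 2, 150664801-150667500), with 2.16, 2.25 and 2.25 and 1 strict site. Peak 1, beside it at the same neighbour, was at -0.12, -0.16 and -0.40.

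The remaining peaks at internal transcript starts of Pds5a were short and held few reads, and per kb they stood at percentiles 75.0, 51.1 and 53.0 of all peaks. Peak 4 was at -1.69, -1.39 and -1.40, peak 5 at -1.64, -0.95 and -0.93 and peak 7 at -2.14, -1.38 and -1.70, each lowest in control and with 9.44 to 26.3 reads per library. At Pds5b, the internal-start peaks 11 and 12 were lowest in Smchd1 del/del, at -0.19, -0.30 and -0.92 and at -0.13, -0.42 and -0.56. Strict sites lay in Pds5a peak 8 (0.13, 0.42 and 0.38) and in Pds5b peaks 4 (-1.45, -1.95 and -1.06) and 5 (-0.87, -1.05 and -1.48), of which Pds5a peak 8 and Pds5b peak 4 carry the recurrent core. The peaks Pds5a 9, Pds5b 5 and Pds5b 6 lie within 1 kb of starts of the predicted genes Gm42728, Gm24630 and Gm26013. Summed levels were 11.9, 12.4 and 12.2 RPM at Pds5a and 18.4, 18.9 and 18.3 RPM at Pds5b, with differences from control of 0.06 ± 0.05 and 0.04 ± 0.06 at Pds5a and 0.04 ± 0.04 and 0.00 ± 0.05 at Pds5b.

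**Figure D2:**
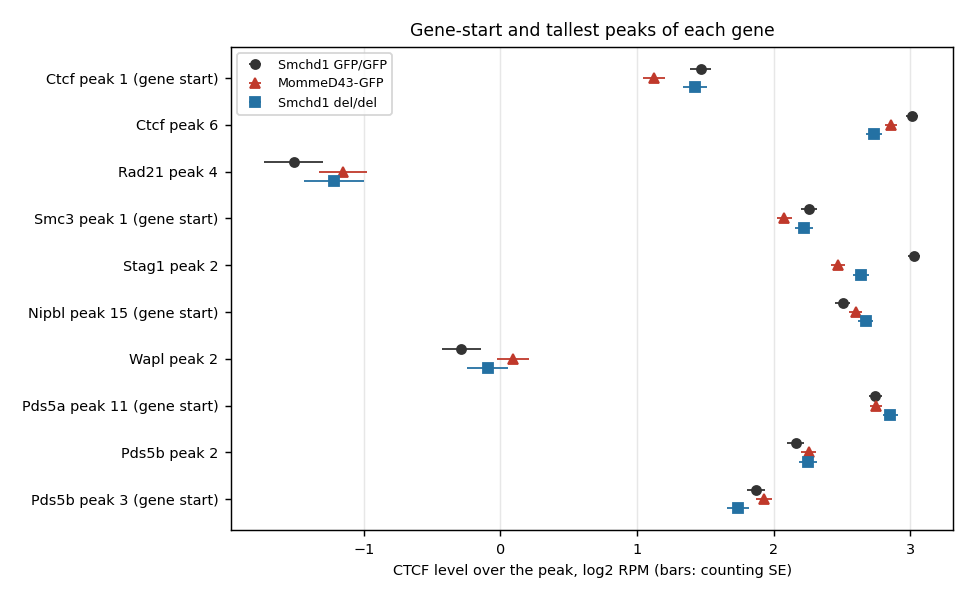
Each row is the gene-start peak or the peak with the highest level per kb of a gene, and the x axis is the level over the whole peak in log2 RPM. Symbols are the 3 genotypes and bars are counting standard errors. The Stag1 peak 2 points are the farthest apart among the tall peaks, at 3.03 in control and 2.47 in MommeD43-GFP, while those of Pds5a peak 11 lie between 2.74 and 2.85.

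Among all protein-coding genes with a peak at the outermost start, the median level per kb of the tallest such peak was 0.49, with quartiles of 0.07 and 0.97. The start peaks of Smc3 (1.60), Nipbl (1.52) and Pds5a (1.13) were above the upper quartile, and those of Ctcf (0.61) and Pds5b (0.33) lay between the quartiles. The Stag1 peak at internal starts would stand above that quartile as well, but is not at the outermost start.

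The first comparison asked whether the MommeD43 mutation goes with altered CTCF occupancy at these genes. MommeD43-GFP exceeded control 2-fold or more at 2 of the 80 peaks (2.5%), a share close to the 2.08% of all merged peaks. None was at least 2-fold lower, against 0.718% of all peaks. The higher ones were Wapl peak 3 (34694101-34694400), with a difference of 1.52 ± 0.38, and Stag1 peak 4 (100707601-100708050), at -2.67 in control and -1.44 in MommeD43-GFP (1.23 ± 0.38). In control they held 6.07 and 6.54 reads per library. At 1.5-fold, 8 members were higher (10%, against 8.64% of all peaks) and 4 were lower (5%, against 5.84%). None of the 38 members at or above the median level was 2-fold apart, against 0.469% of such peaks over the genome. The median difference over the members was -0.02, against 0.01 over all peaks, and 38 of the 80 were higher in MommeD43-GFP (47.5%, against 50.8%).

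The second comparison asked the same of the loss of SMCHD1 and used the same control column. Smchd1 del/del exceeded control 2-fold or more at 3 members (3.75%, against 3.31% of all peaks) and at least 2-fold lower at 2 (2.5%, against 1.85%). The higher ones were Stag1 peak 4, at -0.92 in Smchd1 del/del (1.75 ± 0.38), Nipbl peak 6 (8342551-8343000) at -2.35, -1.97 and -0.79 (1.57 ± 0.35), and Stag1 peak 17 in the downstream flank (100967851-100968300) at -1.74, -1.21 and -0.65 (1.09 ± 0.30). The lower ones were both Nipbl introns, peak 9 (8356501-8357100) at -0.90, -0.92 and -2.45 (-1.55 ± 0.38) and peak 8 (8353951-8354400) at -1.03, -1.35 and -2.08 (-1.05 ± 0.35). Nipbl therefore held peaks on both sides of the control within its gene body. At 1.5-fold, 9 members were higher (11.2%, against 10.7%) and 9 were lower (11.2%, against 10.3%). None of the members at or above the median level was 2-fold apart, against 1.88% of such peaks. The median difference was 0.03, against -0.04 over all peaks, and 44 members were higher (55%, against 46.6%).

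The third comparison set the mutants side by side without the control. MommeD43-GFP was at least 2-fold above Smchd1 del/del at 3 members (3.75%, against 1.26% of all peaks) and at least 2-fold below at 1 (1.25%, against 1.08%). The higher ones were Nipbl peak 9 (1.52 ± 0.37), Pds5a peak 1 in the downstream flank (65601001-65601300) at -1.44, -1.37 and -2.40 (1.02 ± 0.38), and Wapl peak 3 (1.01 ± 0.37). The lower one was Nipbl peak 6 (-1.18 ± 0.30). At 1.5-fold, 8 members were higher (10%, against 7.93%) and 3 were lower (3.75%, against 6.13%), and none at or above the median level was 2-fold apart, against 0.345%. The median difference was -0.03, against 0.03 over all peaks, and 37 members were higher in MommeD43-GFP (46.2%, against 53.9%).

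The 7 members that were 2-fold apart in any comparison shared low depth. Shares over all merged peaks are given above for each comparison alone. The share of all merged peaks that were 2-fold apart in any comparison was not counted, so the 7 cannot be read against it. These 7 members were 300 to 600 bp long and held 6.07 to 31.9 reads per library over the 3 genotypes. Their mean levels did not exceed -1.20, below the median of -0.53 over all peaks. None held a strict motif, and few members of low level did: 4 of the 42 below the median level (9.52%). Of the 7, Wapl peak 3 alone lay at a transcript start. The part of read depth in these differences was not tested. Read against peaks in the same of 10 level classes, 4 members (5%) lay outside the range from the 5th to the 95th percentile in MommeD43-GFP less control, 8 (10%) for Smchd1 del/del less control and 4 (5%) between the mutants, where 10% of all peaks do by construction. Stag1 peak 2 was outside it in both comparisons with control and was the only member of the highest class outside it for MommeD43-GFP. In Smchd1 del/del less control it was joined by Smc3 peak 3 on the opposite side, and centred by GC content neither was outside it there. With this centring the range was read for these 2 peaks only. The counts of 4, 8 and 4 were not repeated, so members that it would move outside the range are not counted.

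**Figure D3:**
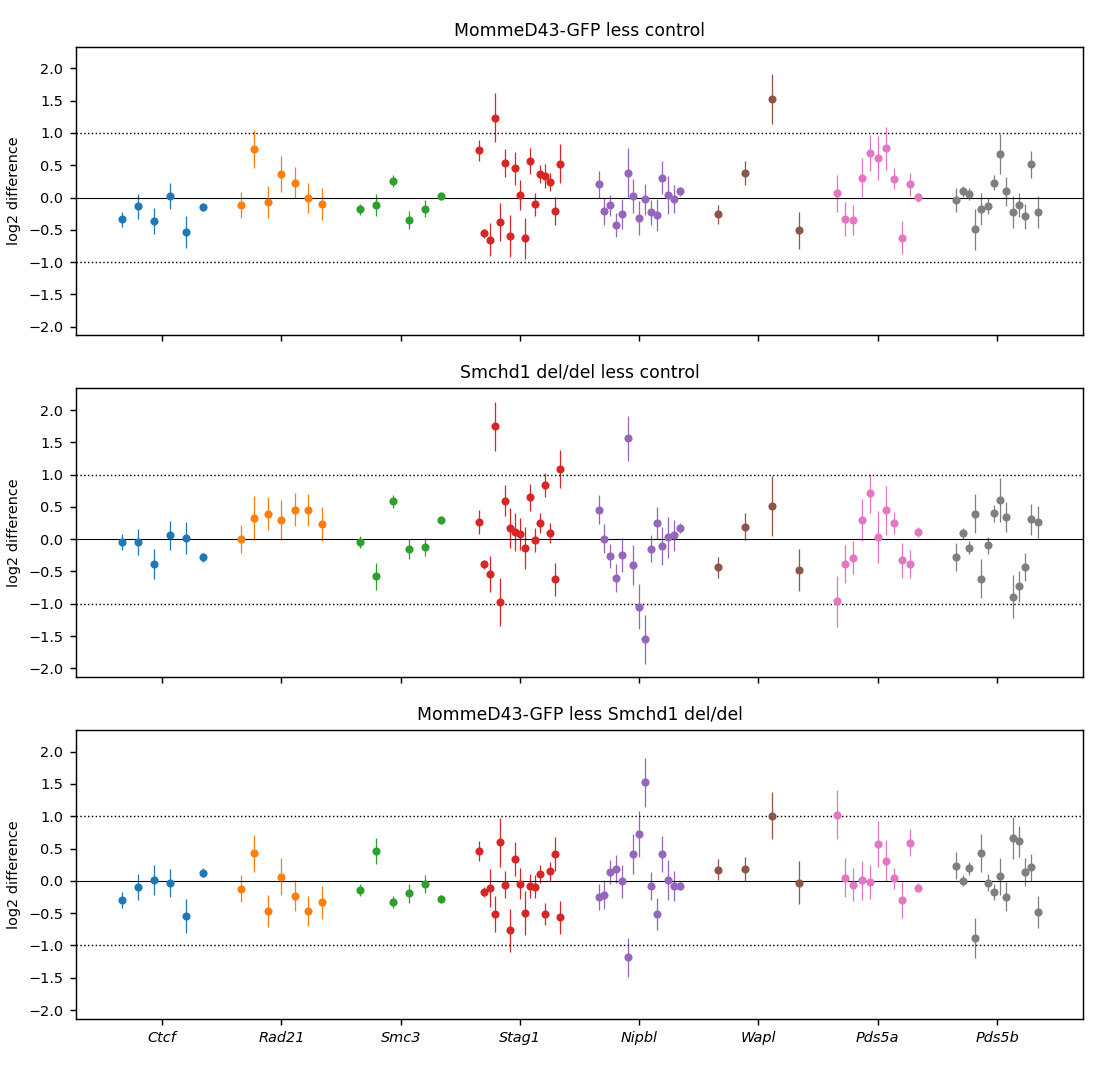
Each point is 1 of the 80 member peaks, ordered within its gene by chromosome position (x axis), and the y axis is the difference in log2 RPM, with a counting standard error. Dotted lines mark 2-fold. All 7 Rad21 points are above 0 in Smchd1 del/del less control, and the Nipbl points beyond the lines lie on both sides.

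**Figure D4:**
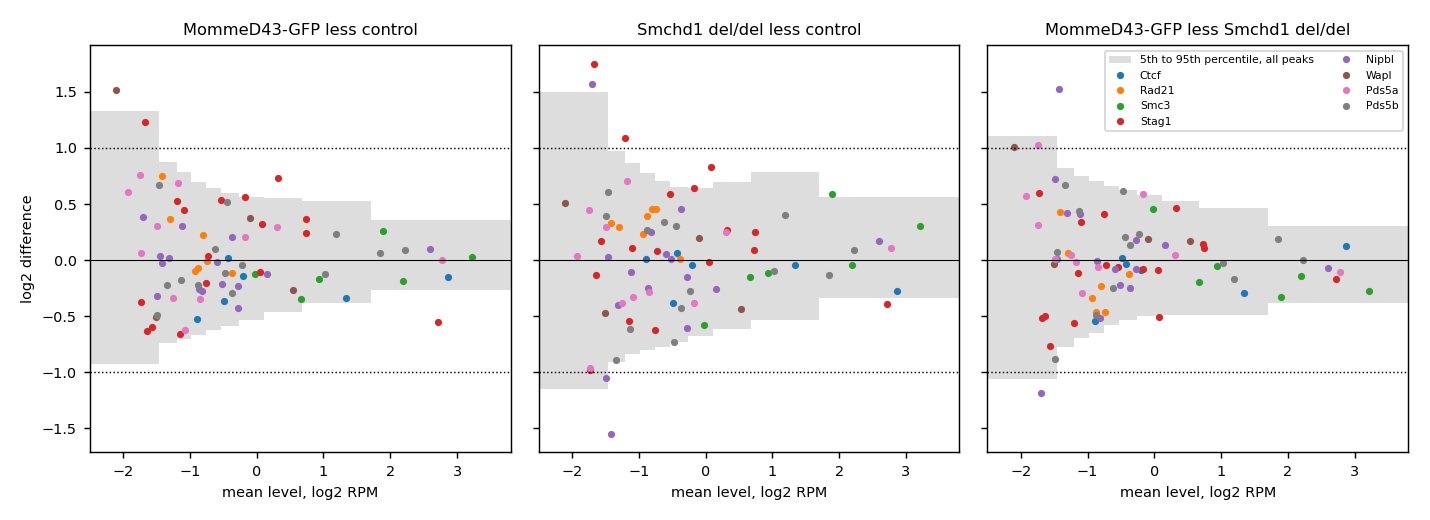
The difference in log2 RPM (y axis) is set against the mean level over the 3 genotypes (x axis) for the 80 member peaks, coloured by gene. Grey is the range from the 5th to the 95th percentile of all merged peaks in each of 10 level classes of equal size, and dotted lines mark 2-fold. Points beyond the dotted lines have mean levels of -1.20 or less, and 4, 8 and 4 of the 80 points lie outside the grey in the panels from left to right.

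Of the 5 member peaks with the recurrent core, 3 were higher than control in MommeD43-GFP. The differences of MommeD43-GFP from control were 0.26 ± 0.10 at Smc3 peak 3, -0.11 ± 0.17 at Stag1 peak 12, 0.38 ± 0.18 at Wapl peak 2, 0.29 ± 0.16 at Pds5a peak 8 and -0.49 ± 0.32 at Pds5b peak 4. In Smchd1 del/del they were 0.59 ± 0.10, -0.02 ± 0.19, 0.19 ± 0.21, 0.25 ± 0.18 and 0.39 ± 0.30. Over the 16713 merged peaks with this core the medians were 0.12 and 0.05, and over the 20378 with another strict core only they were 0.04 and 0.05. Centred by GC content the 5 differences for MommeD43-GFP were 0.02, -0.34, 0.15, 0.16 and -0.72, and for Smchd1 del/del 0.33, -0.28, -0.07, 0.13 and 0.13. The centred medians were 0.06 and 0.03 over all peaks with the core, against 0.03 and 0.09 over those with another strict core only. Reads of 75 bp that fall inside a repeat can be hard to place, and the part of mapping in these levels was not tested. Of the 16 strict sites, 8 lay on the strand of the gene, and of the 6 with the recurrent core 2 did.

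Further genes of the same machinery were listed by function: other cohesin subunits (6 genes), cohesin cofactors (7), the CTCF paralogue and partners (5), condensin (8), SMC5/6 (6) and SMCHD1 with its partner LRIF1 (2). Of these 34 genes, 31 on autosomes, 10 had a peak at the outermost start, against 5 of the 8 members. Among all protein-coding genes on autosomes the share was 43.5%. Their 263 peaks had median differences of 0.00 in MommeD43-GFP and -0.06 for Smchd1 del/del against control. Against control, CTCF was at least 2-fold higher at 7 (2.66%, against 2.08% of all peaks) and lower at 1 (0.38%, against 0.718%) in MommeD43-GFP. In Smchd1 del/del it was higher at 10 (3.8%, against 3.31%) and lower at 1 (0.38%, against 1.85%). Between the mutants, 3 (1.14%, against 1.26%) were higher and 1 (0.38%, against 1.08%) lower in MommeD43-GFP. In all 15 peaks were 2-fold apart in some comparison, for which no share over all merged peaks was counted. Of these, 4 were at or above the median level. They lay at the X-linked deacetylase gene Hdac8 (0.86, 1.11 and 2.00) and at the SMC5/6 genes Smc5 (-0.40, 0.04 and 0.66), Nsmce2 (-0.66, 0.35 and 0.49) and Nsmce3 (-1.23, 0.25 and -0.18), each lowest in control. The other 11 lay at Smc1a, Stag2, Esco2, Hdac8, Sgo1, Ncapg2, Smc6, Nsmce2 and Nsmce4a. Smc1a and Stag2 are X-linked like Hdac8, whereas the 8 members are all autosomal. The list counts were not repeated for autosomes alone. The lists held 11, 25, 24, 41, 38 and 8 peaks at or above the median level, in the order named. None of the 38 such peaks at the 8 genes described above was 2-fold apart. Over all merged peaks of that level 0.469%, 1.88% and 0.345% were in the 3 comparisons. Finding none among 38 therefore does not set the 8 genes apart from the lists or from all peaks. Whether the lists differ from the 8 genes was not tested.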

How the data were processed

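CTCF ChIP-seq was performed by the authors on 8 immunoprecipitated libraries and 1 input library of primary female NSCs. Per the submitters' processing notes and the methods, 75-bp single-end reads passed through FastQC 0.11.8, cutadapt 2.9 and Trim Galore 0.4.4 and were mapped to GRCm38 using Bowtie2 2.3.4.1 and SAMtools 1.7. The authors then called peaks per genotype with SeqMonk and merged those that overlapped. The deposited values are log2 RPM (reads per M), averaged by the authors over the libraries of a genotype and not divided by peak length. The 3 pooled columns allow no model across libraries, so differences, counts past 2-fold and 1.5-fold, and medians are given with no test, in place of the fit planned for single libraries.

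Low values decoded into whole products of counts, with 0 entered as 0.9 (100% of low values at a tolerance of 0.01), which gave counting errors. Peaks were assigned to GENCODE M21 genes with Python 3.11.15, pandas 2.3.3 and numpy 2.4.6. Motifs, GC content and soft-masked bases were read from RefSeq's GRCm38 sequence. The scripts were tested on simulated data. Named peaks are those at a start of the gene, the tallest per kb, those with a strict motif, those 2-fold apart, and the highest and lowest difference of each comparison. The genes, lists and thresholds were chosen with earlier results of these data known. Alternatives were a level filter, centring, removal of a loess trend, quantile normalization, flanks of 0 and 50 kb, peak centres, a 1.5-fold threshold and a relaxed motif. Centring within 20 bins of GC content was added after seeing the data.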

Additional observations from a re-analysis of the deposited data

How the results depend on the processing

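No paired analysis was possible because the table gives 1 pooled value per genotype, and for the same reason no line could be left out. A flank of 50 kb gave 130 member peaks and the filter at the median level 38, against 80. In MommeD43-GFP less control, the median difference of -0.02 moved to -0.0583 with the loess trend removed, -0.0663 with centring by GC content and -0.0739 above the level filter. The count of peaks at least 2-fold higher, 2, was 1 with quantile normalization, 0 above the level filter, 4 with the 50 kb flank and 8 at 1.5-fold, and the count lower, 0, was 4 at 1.5-fold. In Smchd1 del/del less control, the median of 0.03 was 0.0932 after centring of the columns and -0.0292 above the level filter. The count higher, 3, was 0 above the level filter and 9 at 1.5-fold. The count lower, 2, was 1 after centring, 4 without the loess trend, 0 above the level filter, 4 with the 50 kb flank and 9 at 1.5-fold. In MommeD43-GFP less Smchd1 del/del, the median of -0.03 was -0.0699 after centring and 0.0319 with the 50 kb flank. The count higher, 3, was 1 after centring, 1 without the loess trend, 0 above the level filter, 6 with the 50 kb flank and 8 at 1.5-fold. The count lower, 1, was 2 with quantile normalization, 0 above the level filter and 3 at 1.5-fold. Of 408 values of the 34 named peaks under another scaling, 376 moved by less than their counting error, 32 by more, 23 of these with centring by GC content, and none of those past 2-fold turned its direction. The sign of the median thus turned for Smchd1 del/del less control above the level filter and between the mutants with the 50 kb flank, and the cause was not tested. Over all peaks, the share of 2-fold calls that were higher in MommeD43-GFP than in control was 74.4%, and 52.7% after quantile normalization, 53.9% without the loess trend and 61.5% with centring by GC content. Between the mutants it was 53.8%, and 38.9% and 32.8% under the first and second of these. Depth limits the weaker peaks most: the median counting error of MommeD43-GFP less control was 0.260 at members below the median level and 0.162 at the others.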
